A study of Mus musculus with 24 samples.

Results

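The 10 genes described here are a group of connective tissue genes chosen by symbol: the tendon transcription factors Scx and Mkx, the tendon membrane protein gene Tnmd, the cartilage intermediate layer protein genes Cilp and Cilp2, and the 5 thrombospondins, Thbs1, Thbs2, Thbs3, Thbs4 and Comp. They were 10 of the 21948 protein-coding genes kept from the expression table. All 10 were among the 11767 genes tested, which had a value of 1 or more in at least 4 libraries. The values (FPKM) are fragments per kilobase of transcript and per unit of sequencing depth. Each of the 10 was measured in every one of 24 RNA-seq libraries. The list was chosen with earlier results of these data known, so counts of its members called are descriptive.

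The libraries came from skeletal stem and progenitor cells of male mice on postnatal day 10, labelled WT, sorted by flow cytometry. All cells lacked the blood cell markers CD45 and Ter119, the endothelial marker CD31, Thy, 6C3 and CD105, and carried CD200. Within this gate the cells were divided by the surface protein embigin (EMB). Vertebral (spine) cells were also divided by GFP, linked to Zic1-cre, a Cre driven by the gene of a dorsal patterning factor, and GFP+ cells are the zic1-cre positive ones of the series' design. Long bone cells came from femur and tibia and were GFP-, zic1-cre negative. With both sorts combined there were 4 groups of vertebral cells, GFP+ EMB+, GFP+ EMB-, GFP- EMB+ and GFP- EMB-, and 2 of long bone, EMB+ and EMB-, each with 4 libraries. A comparison of vertebral GFP+ cells with long bone thus changes both the site and the lineage. The titles speak of biological replicates, but no label names the animals, so p-values measure the spread between these samples, part of which may be technical.

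Scleraxis, the product of Scx, is a basic helix-loop-helix factor that marks tendon and ligament progenitors, binds E-box sequences and acts upstream of Tnmd. Mohawk, the product of Mkx, is a homeobox factor that supports tendon collagen genes and holds back other mesenchymal fates. Thrombospondins are secreted calcium-binding glycoproteins. Thrombospondin-1 and -2 form trimers with domains that restrain blood vessel growth, whereas thrombospondin-3, -4 and COMP form pentamers that bind collagens in cartilage and tendon. CILP and CILP-2 are cartilage matrix proteins that differ in where they lie in the tissue, and CILP can bind TGF-beta. Several of these genes are also expressed where tendon attaches to bone.

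Library checks bear on what follows. Emb RNA stood between 30.1 and 56.5 FPKM in the 12 EMB+ libraries and between 0.238 and 1.32 FPKM in the 12 EMB- libraries, and Zic1 was at 0.349 to 2.39 FPKM in the 8 vertebral GFP+ libraries, at most 0.108 FPKM in the 8 vertebral GFP- libraries and listed at 0 in all 8 long bone libraries. The 4 libraries grouped as vertebral GFP- EMB+ carry titles that read Emb-GFP+, against their own cell type label, and Emb was at 44.4 to 55.3 FPKM in them. Chondrocyte markers were abundant in all 6 groups (summed FPKM of 7 genes from 24590 to 56550), and 6 endothelial markers summed to at most 6.82 FPKM. Long bone EMB- replicate 4 stood apart: its lowest correlation with the other 3 libraries of its group, over genes, was 0.9251, and the lowest within the other 5 groups was 0.9783. Its FPKM over all genes kept summed to 568495, against at most 454256 in any other library. The cells were sorted in bulk, so fewer cells of a type and less RNA per cell cannot be told apart.

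Across the 24 libraries the 10 genes ranged from 1.74 FPKM (Thbs4) to 5825 FPKM (Comp). FPKM, being per transcript length, allows a rough comparison of levels between genes. Scx, Mkx, Thbs1 and Thbs3 overlap other genes, as given below, which limits it for them. Comp was the most abundant, with means from 1454 ± 419 FPKM (long bone EMB-) to 5719 ± 125 FPKM (vertebral GFP- EMB+; mean ± SD, n = 4, here and below), and ranked 4th among all genes in both vertebral EMB+ groups. Thbs1 and Cilp2 followed, with group means from 510.0 to 736.2 FPKM and from 206.0 to 666.3 FPKM. Thbs3, Cilp and Tnmd lay between 5.97 and 215.1 FPKM, and Scx, Mkx, Thbs2 and Thbs4 between 2.51 and 121.9 FPKM. The ratio of the highest to the lowest group mean was 48.6 for Thbs4, 31.8 for Cilp, 15.4 for Tnmd and 1.44 for Thbs1, so genes of 1 family differed widely in how much they varied.

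**Figure D1:**
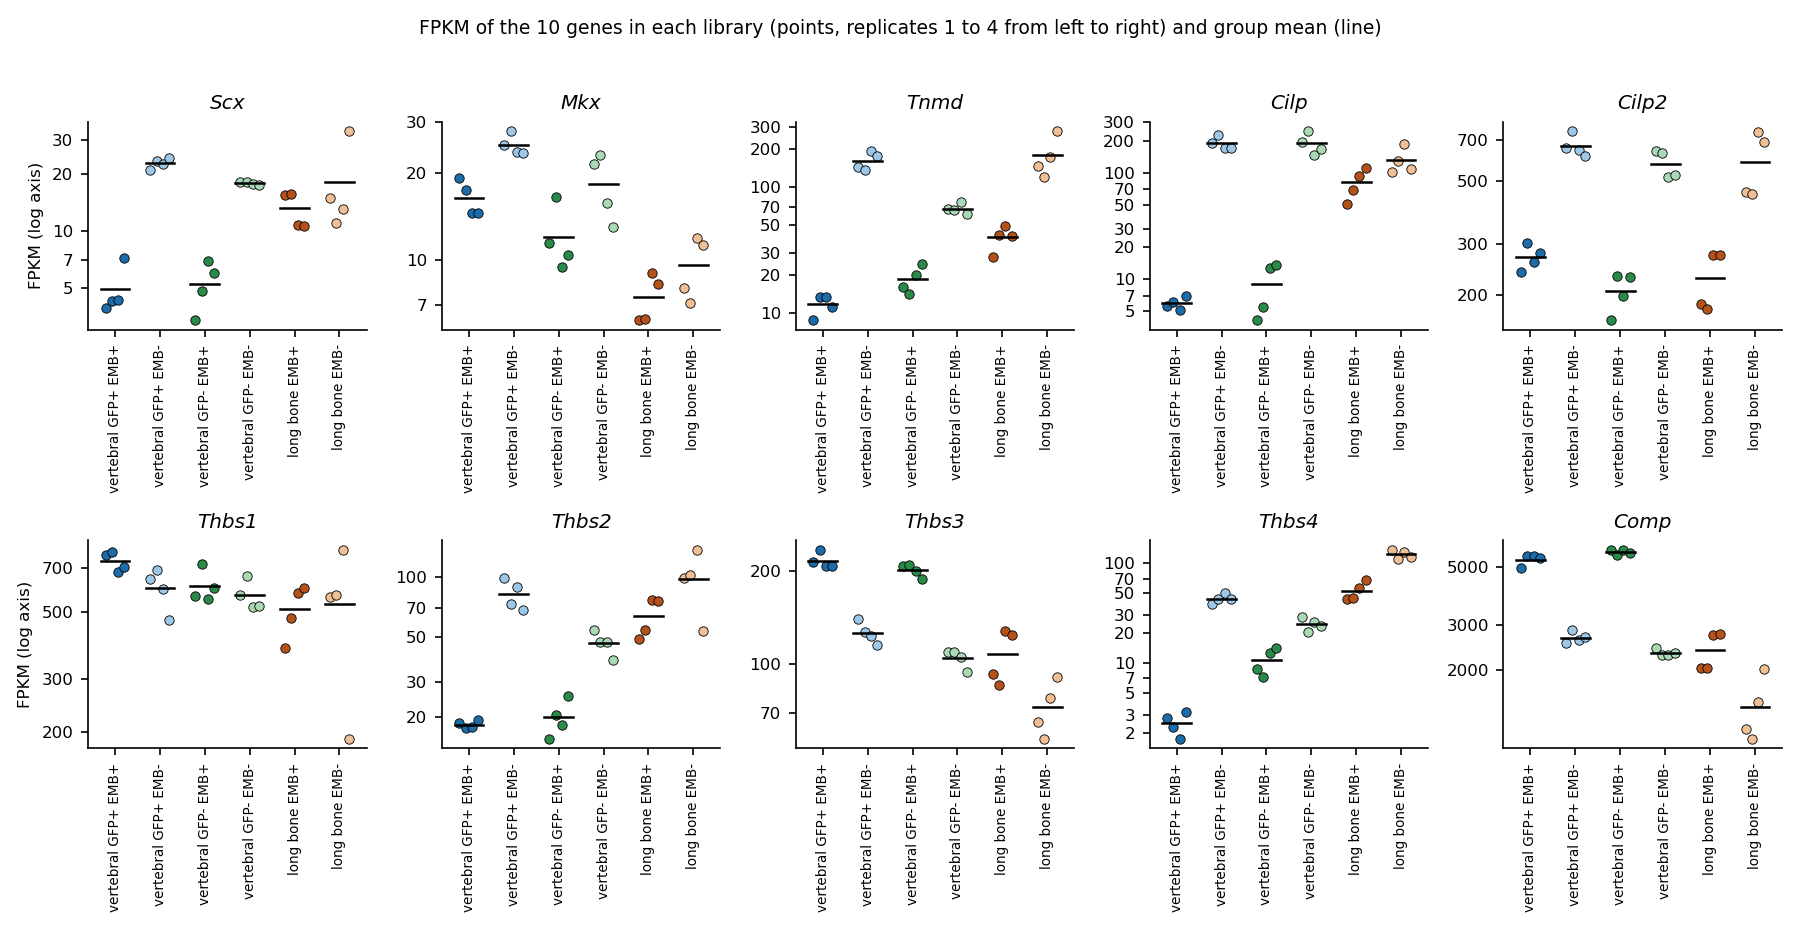
FPKM (log axis) of each of the 10 genes in the 24 libraries, with points for replicates 1 to 4 of each group from left to right and a line for the group mean. Thbs4 runs from 1.74 FPKM in a vertebral GFP+ EMB+ library to 135.7 FPKM in a long bone EMB- library, while Thbs3 and Comp are highest in the vertebral EMB+ libraries.

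The comparison of EMB+ with EMB- cells asks how the embigin sort divides these progenitors. In vertebral GFP+ cells, 7 of the 10 genes were lower in EMB+ cells (Scx, Mkx, Tnmd, Cilp, Cilp2, Thbs2 and Thbs4) and 2 were higher (Thbs3 and Comp), with limma and a Benjamini-Hochberg adjusted p under 0.05. Of all genes tested, 7.85% were lower and 42.1% higher. The same 7 and 2 genes passed in vertebral GFP- cells, where 10.6% of all genes were lower and 41.7% higher. In long bone, 5 genes were lower (Tnmd, Cilp, Cilp2, Thbs2 and Thbs4) and the same 2 higher, against 16% of all genes lower and 17.5% higher. The median difference of the 10 genes, EMB+ minus EMB- on the log2(FPKM + 1) scale, was -1.66, -1.19 and -0.44 in these 3 settings, and that of all tested genes was 0.32, 0.30 and 0.08. For genes with low values the pseudocount of 1 makes these differences too small.

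The FPKM of all genes kept summed to 426319 to 453951 in vertebral EMB+ libraries and 382364 to 403485 in vertebral EMB- libraries, without overlap. The split over all genes moved with the scaling: higher calls were 84.3% of all calls in vertebral GFP+ cells as deposited, 46.9% after median-ratio scaling and 51.8% after quantile normalization. The matching shares were 79.7%, 43.7% and 53.8% in vertebral GFP- cells and 52.3%, 39.9% and 59.7% in long bone. The 9 members called in each vertebral comparison were called in the same direction under both scalings. Relative to the median of all genes, Thbs3 rose by 0.45 and Comp by 0.68 in vertebral GFP+ cells, and by 0.63 and 0.99 in vertebral GFP- cells.

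Scx was low in vertebral EMB+ cells. In the vertebral GFP+ libraries it stood at 3.93, 4.29, 4.35 and 7.23 FPKM in EMB+ cells and at 20.99, 23.3, 22.5 and 24.3 FPKM in EMB- cells, so the groups did not overlap and replicate 4 was the highest of the EMB+ libraries. It fell by 2.03 (SE 0.23, adjusted p = 1.51e-07). In the GFP- lineage the EMB- mean was 17.9 ± 0.352 FPKM and the EMB+ mean 5.29 ± 1.53 FPKM, a fall by 1.62 (SE 0.23, adjusted p = 3.34e-06). In long bone Scx read 15.5, 15.7, 10.7 and 10.7 FPKM in EMB+ and 14.9, 11.1, 13.0 and 33.5 FPKM in EMB- libraries. Those ranges overlapped, the difference of -0.32 did not pass (adjusted p = 0.303), and 1 library, EMB- replicate 4, stood far above the other 7. Without that library the difference was 0.00 (SE 0.18). Scx (ENSMUSG00000034161, chromosome 15, 76457438 to 76459468, GRCm38) lies inside Bop1, a ribosome assembly gene on the opposite strand, with 0 shared exon bases. The libraries do not keep strand, so reads of the 2 genes cannot be told apart where they overlap, and Bop1 was higher in EMB+ cells in all 3 comparisons, by 0.75, 0.73 and 0.82, opposite to Scx.

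Tnmd, which encodes tenomodulin, a membrane glycoprotein of mature tenocytes, showed the steepest change of the 3 tendon factors. The vertebral GFP+ libraries held 8.73, 13.3, 13.4 and 11.1 FPKM in EMB+ cells and 143.5, 136.7, 194.6 and 176.2 FPKM in EMB- cells, a 14.0-fold ratio of means with no overlap. In vertebral GFP- libraries the values were 16.0, 14.1, 20.1 and 24.5 FPKM in EMB+ and 66.9, 65.2, 76.2 and 61.0 FPKM in EMB- cells. Long bone libraries held 27.9, 41.6, 49.1 and 41.1 FPKM in EMB+ and 146.3, 120.5, 172.8 and 279.5 FPKM in EMB- cells. All 3 pairs of groups were thus separate, and the differences were -3.70, -1.82 and -2.099 (SE 0.21 each, adjusted p at most 1.08e-07). Tnmd (ENSMUSG00000031250) lies on chromosome X, 133850980 to 133865577. The ratio of Tnmd to Scx FPKM within a library averaged 10.6 ± 2.09 in EMB- cells of long bone and 7.16 ± 1.16 in those of the GFP+ lineage, and 2.48 to 3.76 in the other 4 groups.

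Mkx had the smallest EMB difference of the 3 in both vertebral comparisons, while in long bone its difference was close to that of Scx (-0.31 and -0.32, neither past the test; Scx was 0.00 without EMB- replicate 4). In the vertebral GFP+ lineage its mean was 16.4 ± 2.30 FPKM in EMB+ and 24.97 ± 2.08 FPKM in EMB- cells, with no overlap, and fell by 0.58 (SE 0.18, adjusted p = 0.0111). The GFP- means were 11.97 ± 3.14 and 18.4 ± 4.79 FPKM, a fall by 0.57 (SE 0.18, adjusted p = 0.0113), but the ranges overlapped and the call was lost without EMB- replicate 2 (adjusted p = 0.0538). In long bone the means were 7.44 and 9.58 FPKM and the difference of -0.31 did not pass (adjusted p = 0.196). Mkx (ENSMUSG00000061013), on chromosome 18, was listed from 6910459 to 7004780, whereas its annotated gene starts at 6934518. Mkx shares 201 exon bases with AC148004.2, an overlapping transcript on the same strand that was not analysed here. That transcript runs from 6910459 to 6936621, all within the listed span of Mkx. Whether the Mkx values include its reads was not tested.

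Cilp showed the largest EMB difference of the 10 genes in vertebrae and a small one in long bone. The vertebral GFP+ libraries held 5.58, 6.16, 5.12 and 7.01 FPKM in EMB+ cells and 191.02, 227.8, 171.4 and 169.6 FPKM in EMB- cells, a 31.8-fold ratio of means. The vertebral GFP- libraries held 4.15, 5.55, 12.7 and 13.7 FPKM in EMB+ and 194.7, 246.0, 147.3 and 167.2 FPKM in EMB- cells. In long bone, EMB+ libraries held 51.2, 69.6, 92.6 and 111.9 FPKM and EMB- libraries 102.6, 128.3, 186.4 and 108.3 FPKM, and the ranges overlapped. The differences were -4.77, -4.36 and -0.70 (SE 0.27 each, adjusted p = 5.36e-13, 1.98e-12 and 0.0472). The long bone call was lost under 9 of the alternatives, among them a fit restricted to the 2 long bone groups (adjusted p = 0.1) and the fit without long bone EMB- replicate 4 (adjusted p = 0.0627). Cilp (ENSMUSG00000042254) lies on chromosome 9, 65265180 to 65280605.

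Its paralog Cilp2 (ENSMUSG00000044006, chromosome 8, 69880369 to 69887687) fell in all 3 comparisons. Group means were 270.8 ± 26.7 FPKM in EMB+ against 666.3 ± 58.4 FPKM in EMB- cells of the vertebral GFP+ lineage, 206.0 ± 32.8 against 577.3 ± 64.3 FPKM in vertebral GFP- cells and 228.5 ± 54.4 against 585.1 ± 151.8 FPKM in long bone. The groups were separate in each pair, and the Cilp2 differences were -1.297, -1.49 and -1.35 (SE 0.17 each, adjusted p at most 1.29e-06). Within a library, the ratio of Cilp2 to Cilp FPKM was 43.2, 49.2, 50.7 and 39.9 in vertebral GFP+ EMB+ cells. The vertebral GFP- EMB+ libraries had ratios of 39.3, 42.0, 15.6 and 16.8, and the 16 other libraries stood between 2.46 and 6.33. EMB+ vertebral cells thus held far more Cilp2 than Cilp RNA, and in vertebral GFP- EMB+ cells the ratio fell into 2 libraries near 40 and 2 near 16.

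The stretches of 250 bases upstream of the RefSeq gene start are printed for 4 members, 3 that were lower in EMB+ cells (Cilp, Thbs4 and Thbs2) and 1 that was higher (Thbs3), because scleraxis and related factors bind the E-box CANNTG, which is in capitals. The sequences are from RefSeq on build GRCm38.p6, written 5′ to 3′ on the strand of the gene. Both strands were searched, and this motif reads the same way on both.
Cilp, plus strand, chr9:65264930-65265179: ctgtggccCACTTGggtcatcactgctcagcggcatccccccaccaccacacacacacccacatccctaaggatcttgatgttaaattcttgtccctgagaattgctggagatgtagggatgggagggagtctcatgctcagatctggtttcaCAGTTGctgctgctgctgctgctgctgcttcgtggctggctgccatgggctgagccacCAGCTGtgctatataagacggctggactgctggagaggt
Thbs4, minus strand, chr13:92794819-92795068: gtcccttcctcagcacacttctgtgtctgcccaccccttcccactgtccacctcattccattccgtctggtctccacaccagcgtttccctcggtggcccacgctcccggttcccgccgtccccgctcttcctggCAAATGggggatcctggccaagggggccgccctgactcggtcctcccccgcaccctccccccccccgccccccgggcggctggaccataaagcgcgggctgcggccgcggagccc
Thbs2, minus strand, chr17:14694263-14694512: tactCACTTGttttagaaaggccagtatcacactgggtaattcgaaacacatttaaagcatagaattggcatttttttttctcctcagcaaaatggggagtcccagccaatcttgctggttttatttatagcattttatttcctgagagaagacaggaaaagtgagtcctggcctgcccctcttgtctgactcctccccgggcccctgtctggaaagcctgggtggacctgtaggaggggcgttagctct
Thbs3, plus strand, chr3:89214930-89215179: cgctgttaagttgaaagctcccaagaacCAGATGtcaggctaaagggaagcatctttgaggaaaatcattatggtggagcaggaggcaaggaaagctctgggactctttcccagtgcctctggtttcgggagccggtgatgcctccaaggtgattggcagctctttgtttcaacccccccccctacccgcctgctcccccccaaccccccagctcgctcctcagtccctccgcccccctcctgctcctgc
The Thbs3 window lies within the overlapping gene Mtx1, outside its exons. Of the 10 genes, 6 matched the promoter table. Cilp had 3 E-boxes, starting 242, 97 and 39 bases before the gene start, and 12.1% of 27025 mouse promoters of the same length have 3 or more. Thbs4, Thbs2, Thbs3 and Cilp2 had 1 each, as 66.0% of promoters have at least 1, and Tnmd had 0 in its window. The Cilp2 window lies inside the annotated Cilp2 gene, with up to 250 of its bases in exons, and the Tnmd window has up to 28 bases in Tnmd exons. The TATA sequence TATAAA, found in 13.0% of promoters, was found among the 6 only in the Thbs2 window, on the opposite strand, and the AP-1 motif TGANTCA, found in 6.87%, was in none of the 6. A match of letters is a description of the sequence and not a binding site.

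Thbs4, a pentameric thrombospondin of tendon and muscle matrix, was the member with the widest range. It read 2.79, 2.30, 1.74 and 3.21 FPKM in vertebral GFP+ EMB+ libraries and 38.8, 43.8, 50.1 and 43.2 FPKM in vertebral GFP+ EMB- libraries. In vertebral GFP- cells the values were 8.60, 7.28, 12.6 and 14.0 FPKM in EMB+ and 28.8, 20.4, 25.7 and 23.4 FPKM in EMB- libraries. In long bone they were 43.7, 44.9, 56.5 and 67.0 FPKM in EMB+ and 135.7, 108.6, 129.6 and 113.7 FPKM in EMB- libraries. In each pair of groups the EMB+ libraries all lay below the EMB- libraries. Thbs4 (ENSMUSG00000021702, chromosome 13, 92751590 to 92794818) had differences of -3.69, -1.17 and -1.202 (SE 0.17 each, adjusted p at most 4.4e-06). In the order of the 6 group means, from 121.9 ± 12.8 FPKM (long bone EMB-) down to 2.51 ± 0.631 FPKM (vertebral GFP+ EMB+), only long bone EMB+ (53.0 ± 10.9 FPKM) and vertebral GFP+ EMB- cells (44.0 ± 4.63 FPKM) overlapped as neighbours.

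Thbs2, which encodes a trimeric matrix thrombospondin made by fibroblasts, followed in the same direction. Its means were 18.3 ± 0.783 FPKM in EMB+ against 82.1 ± 13.7 FPKM in EMB- vertebral GFP+ cells and 19.9 ± 4.17 and 46.8 ± 6.62 FPKM in vertebral GFP- cells. Both pairs were separate, with differences of -2.09 and -1.203 (SE 0.20 each, adjusted p = 9.63e-09 and 2.88e-05). In long bone it read 49.0, 54.0, 76.4 and 76.0 FPKM in EMB+ and 98.3, 101.8, 136.4 and 53.4 FPKM in EMB- libraries, where replicate 4 fell among the EMB+ values. The long bone fall was by 0.56 (SE 0.20, adjusted p = 0.0377) and by 0.82 (SE 0.17, adjusted p = 3.28e-04) without that library, but the call was lost under 8 alternatives, with adjusted p = 0.199 when only the 2 long bone groups were fitted. Thbs2 (ENSMUSG00000023885) lies on chromosome 17, 14665500 to 14694262.

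Thbs3 and Comp, both pentameric and both cartilage genes, were higher in EMB+ cells. Comp (ENSMUSG00000031849, chromosome 8, 70373558 to 70382066) read 4939, 5520, 5495 and 5394 FPKM in EMB+ and 2545, 2852, 2614 and 2701 FPKM in EMB- vertebral GFP+ libraries. In vertebral GFP- cells it read 5822, 5574, 5825 and 5654 FPKM in EMB+ and 2443, 2297, 2288 and 2327 FPKM in EMB- libraries. Long bone libraries read 2040, 2037, 2747 and 2751 FPKM in EMB+ and 1188, 1093, 1514 and 2021 FPKM in EMB- cells, with the EMB- replicate 4 just under the lowest EMB+ library. Comp rose by 0.99, 1.29 and 0.75 (SE 0.15 each, adjusted p = 7.48e-06, 1.27e-07 and 3.47e-04).

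Thbs3 (ENSMUSG00000028047, chromosome 3, 89215180 to 89226837) averaged 215.1 ± 12.4 FPKM in EMB+ and 126.4 ± 10.1 FPKM in EMB- vertebral GFP+ cells, 200.6 ± 9.42 and 104.8 ± 7.13 FPKM in vertebral GFP- cells, and 107.8 ± 21.4 and 73.2 ± 14.8 FPKM in long bone. It rose by 0.76, 0.93 and 0.55 (SE 0.13 each, adjusted p = 5.01e-05, 2.96e-06 and 0.00219), and the long bone groups overlapped. When only the 2 long bone groups were fitted, the calls of Thbs3 (adjusted p = 0.0851) and Comp (0.0620) were lost, while both held without long bone EMB- replicate 4 (0.66, SE 0.12, and 0.92, SE 0.12). Thbs3 shares 318 exon bases with Mtx1, a mitochondrial import gene on the opposite strand. Mtx1 was also higher in EMB+ cells, by 0.89, 1.19 and 0.41, and reads in the shared bases cannot be told apart without strand.

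Thbs1 (ENSMUSG00000040152, chromosome 2, 118111876 to 118127133), the thrombospondin best known for activating latent TGF-beta and for restraining vessel growth, did not pass in any of the 3 comparisons. The differences were 0.31 (95% interval -0.23 to 0.85), 0.10 (-0.44 to 0.64) and 0.10 (-0.45 to 0.64), with adjusted p = 0.337, 0.771 and 0.816. Its long bone EMB- values were 562.2, 567.1, 803.5 and 189.9 FPKM, where replicate 3 was the highest and replicate 4 the lowest of all 24 libraries. The long bone difference on the log scale was above 0 while the ratio of means, EMB+ over EMB-, was 0.961, and without EMB- replicate 4 the difference was -0.34 (SE 0.15, adjusted p = 0.0842). When only the 2 vertebral GFP+ groups were fitted, the difference of 0.31 passed (adjusted p = 0.0255), and after median-ratio scaling it was -0.08, so no direction is given for Thbs1. Thbs1 shares 208 exon bases with the long noncoding RNA gene Gm29233 on the opposite strand.

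**Figure D2:**
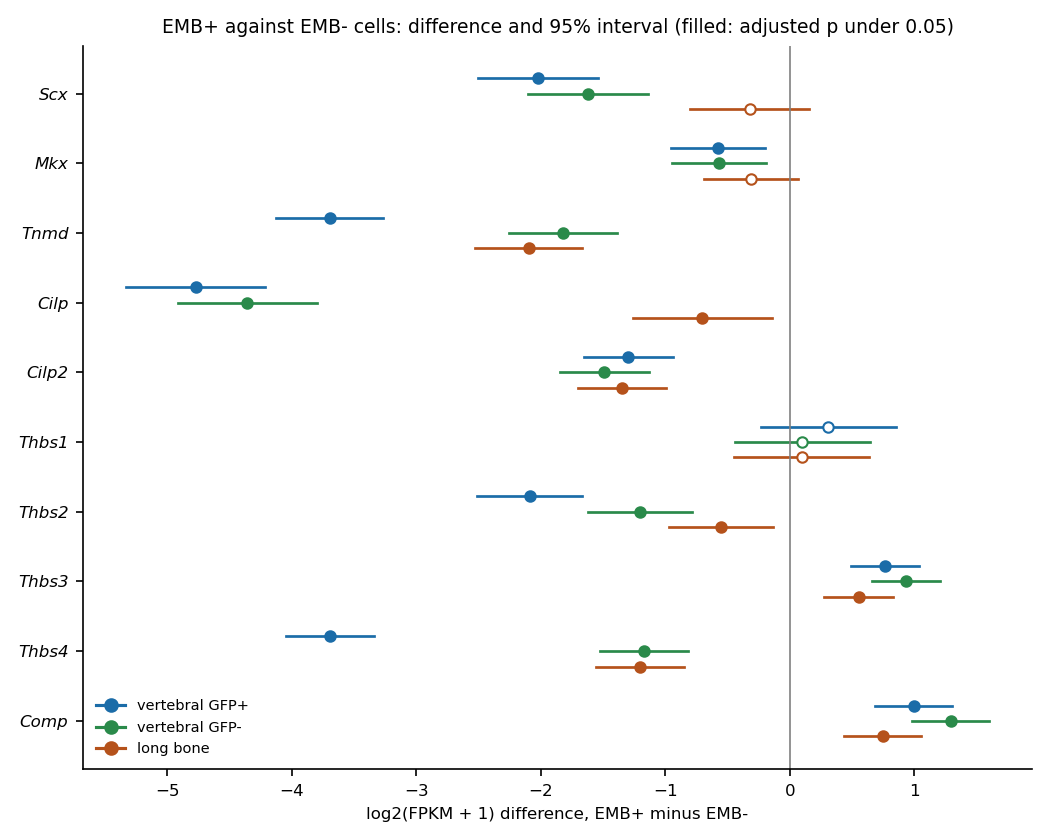
Difference of EMB+ minus EMB- cells on the log2(FPKM + 1) scale for each of the 10 genes (points, with the 95% interval from the limma fit as a bar) in vertebral GFP+, vertebral GFP- and long bone cells. Filled points passed an adjusted p of 0.05, and Cilp lies at -4.77 and -4.36 in vertebrae and at -0.70 in long bone.

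Within the thrombospondin family the make-up of the RNA differed by group. Comp held 84.6% ± 1.24 and 87.2% ± 1.28 of the summed thrombospondin FPKM in vertebral GFP+ and GFP- EMB+ cells and 75.9% ± 2.55 and 75.9% ± 1.79 in the matching EMB- cells. Long bone EMB+ cells were at 76.6% ± 1.23, near the vertebral EMB- cells. In long bone EMB- cells Comp held 58.0%, 56.7%, 56.9% and 81.8%, and Thbs1 held 27.4%, 29.4%, 30.2% and 7.69%. The fourth library thus had a Comp to Thbs1 ratio of 10.6, where the other 3 had 1.88 to 2.11. The share of Thbs4 ran from 0.0400% ± 0.0108 in vertebral GFP+ EMB+ to 5.43% ± 0.905 in long bone EMB- libraries.

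**Figure D3:**
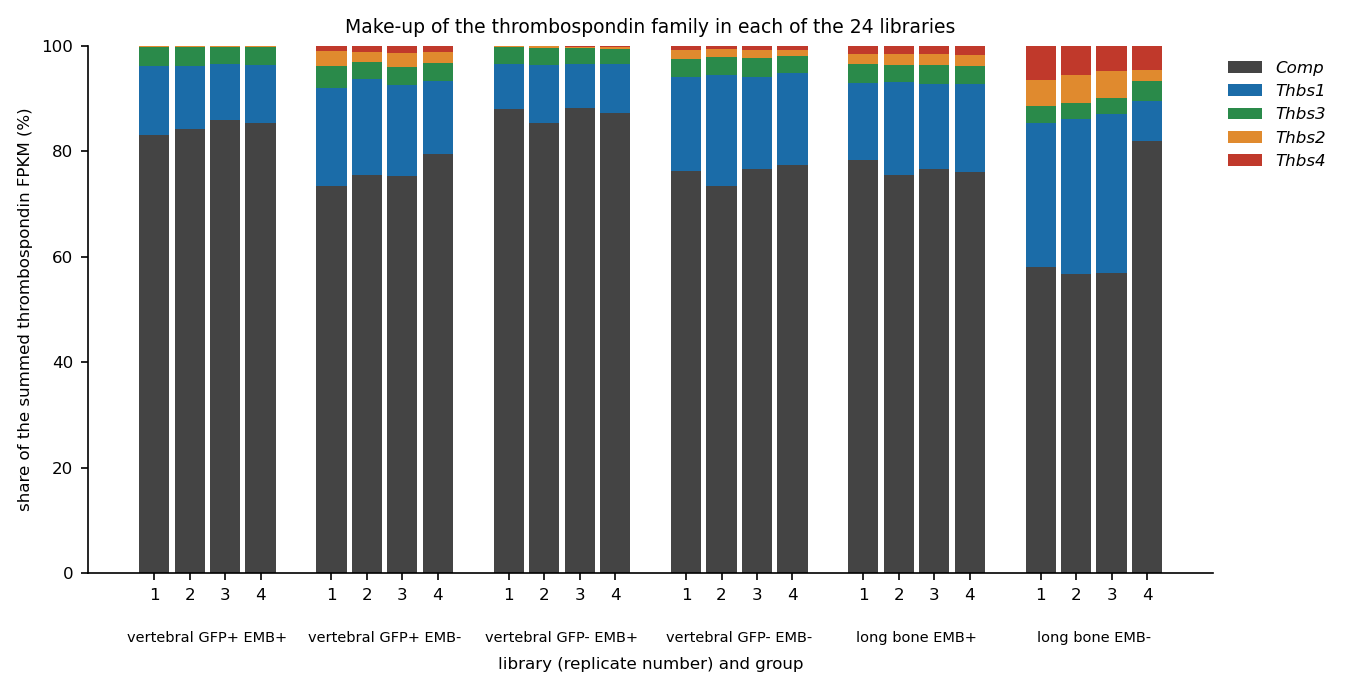
Share of each thrombospondin (percent of the summed FPKM of Thbs1, Thbs2, Thbs3, Thbs4 and Comp) in each of the 24 libraries, by group and replicate number. Comp holds 83.1% to 88.2% in the 8 vertebral EMB+ libraries, and long bone EMB- replicate 4, at 81.8%, differs from the 56.7% to 58.0% of the other 3 libraries of its group.

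Whether the EMB difference itself differed between settings was tested as a difference of differences. Against vertebral GFP- cells, the EMB difference in vertebral GFP+ cells was lower for 2 of the 10 genes, Tnmd by -1.88 (SE 0.30, adjusted p = 1.44e-04) and Thbs4 by -2.52 (SE 0.24, adjusted p = 1.84e-07), and higher for 0, where 1.67% of all genes were lower and 3.2% higher. Against long bone it was lower for 5, Scx (-1.70), Tnmd (-1.60), Cilp (-4.07), Thbs2 (-1.54) and Thbs4 (-2.49), with adjusted p at most 2.72e-04, and higher for 0, where 5.57% of all genes were lower and 25% higher. The EMB difference in vertebral GFP- cells against long bone was lower for Scx (-1.296, SE 0.33, adjusted p = 0.00451) and Cilp (-3.66, SE 0.38, adjusted p = 1.39e-07) and higher for 0, where 5.07% were lower and 24.7% higher. Higher calls were 81.7% and 83% of all calls in the last 2 comparisons as deposited, and 57.6% and 54.4% after median-ratio scaling. These 9 member calls held under both scalings, and Thbs2 (lower) was also called against long bone in vertebral GFP- cells under both.

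The Cilp pair thus parted: its EMB difference was larger in vertebrae, while that of Cilp2 differed from long bone by 0.05 (95% interval -0.45 to 0.55) in vertebral GFP+ and by -0.14 (-0.65 to 0.36) in vertebral GFP- cells. Among the thrombospondins, Thbs4 had an EMB difference in vertebral GFP- cells that differed from long bone by 0.03 (-0.47 to 0.53). Comp missed the threshold there with 0.54 (SE 0.21, adjusted p = 0.0539) and passed under 7 alternatives, among them without long bone EMB- replicate 2 (adjusted p = 0.0163). With a replicate block by title codes, both Comp (adjusted p = 0.00177) and Thbs3 (0.38, adjusted p = 0.00945, against 0.130 without the block) were called higher there. Mtx1, which shares 318 exon bases with Thbs3, was also higher there without the block, by 0.77 (SE 0.21, adjusted p = 0.007). Thbs1 passed against long bone in vertebral GFP+ cells without long bone EMB- replicate 4 (0.65, SE 0.21, adjusted p = 0.0168), and had 0.21 (SE 0.37) with it.

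Without a replicate block, vertebral GFP+ and GFP- cells, which compare the Zic1-cre lineage with other cells of the same site, differed in few members. In EMB+ cells 1 gene was lower in GFP+ cells, Thbs4, and 0 were higher, where 1.71% of all genes were lower and 0.391% higher. Thbs4 was 2.51 ± 0.631 FPKM in GFP+ and 10.6 ± 3.18 FPKM in GFP- cells and was lower by 1.70 (SE 0.17, adjusted p = 2.02e-07). In EMB- cells the order turned: Thbs4 was 44.0 ± 4.63 in GFP+ and 24.6 ± 3.56 FPKM in GFP- cells and was higher by 0.82 (SE 0.17, adjusted p = 0.00182). Tnmd was higher there by 1.25 (SE 0.21, adjusted p = 1.20e-04), with 162.7 ± 27.4 and 67.3 ± 6.40 FPKM, and Thbs2 by 0.79 (SE 0.20, adjusted p = 0.0117). So 3 members were higher in GFP+ EMB- cells and 0 lower, where 2.25% of all genes were higher and 6.22% lower. Higher calls were 26.6% of all calls as deposited and 41.4% after quantile normalization, and the 3 member calls held under both scalings. The Thbs2 call was lost without GFP+ EMB- replicate 1 (adjusted p = 0.0521) or GFP- EMB- replicate 4 (0.0538). Tnmd in EMB+ cells, at 11.6 ± 2.20 and 18.7 ± 4.65 FPKM with separate ranges, did not pass (-0.63, adjusted p = 0.180).

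Samples with the same replicate number deviated together in the vertebral groups compared by GFP. With the replicate number as a block, shared by the vertebral and long bone EMB- libraries, the same 1 and 3 members were called. With a block that follows the running codes in the titles, so that vertebral sets and long bone pairs have blocks of their own, 4 members were called in EMB+ cells (Mkx and Cilp2 higher, Tnmd and Thbs4 lower) and 5 in EMB- cells (Mkx, Tnmd, Thbs2, Thbs3 and Thbs4, all higher). The share of all genes called with that block is not given here, so these counts stand without a background.

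Long bone cells were compared with each vertebral group at the same EMB state. Among EMB+ cells, both vertebral groups had 5 members lower than long bone (Scx, Tnmd, Cilp, Thbs2 and Thbs4) and 3 higher (Mkx, Thbs3 and Comp). Of all genes, 12.9% were lower and 8.66% higher for vertebral GFP+ cells, and 10.6% lower and 8.49% higher for vertebral GFP- cells. The 2 comparisons share the long bone libraries, so their likeness is no separate evidence. Higher calls for vertebral GFP+ cells were 40.2% of all calls as deposited and 50.5% after quantile normalization, with the same 8 member calls.

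Thbs4 was 21.1-fold and 4.99-fold lower than in long bone EMB+ cells by the ratio of means (differences -3.94 and -2.24, SE 0.17 each, adjusted p at most 3.8e-10), and Cilp 13.6-fold and 9.02-fold lower (-3.51 and -3.12, SE 0.27 each, adjusted p at most 3.34e-09). Scx was lower by 1.26 and 1.18, Tnmd by 1.68 and 1.06 and Thbs2 by 1.72 and 1.63, and every one of these pairs of groups was separate. Mkx went the other way from Scx and Tnmd: vertebral GFP+ EMB+ libraries held 19.2, 17.4, 14.6 and 14.5 FPKM and long bone EMB+ libraries 6.19, 6.24, 9.04 and 8.28 FPKM. It was higher by 1.05 (SE 0.18, adjusted p = 9.21e-05) and, in vertebral GFP- cells, by 0.61 (adjusted p = 0.0191), a call that was lost without vertebral GFP- EMB+ replicate 2 (0.106) or long bone EMB+ replicate 1 (0.0679) or 2 (0.0697). Comp was higher by 1.17 and 1.27 and Thbs3 by 1.01 and 0.91.

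Among EMB- cells fewer members were called by site than among EMB+ cells as deposited, a gap that was smaller after median-ratio scaling. Vertebral GFP+ cells had 3 members higher (Mkx, Thbs3 and Comp) and 1 lower (Thbs4), where 7.4% of all genes were higher and 40.4% lower. Vertebral GFP- cells had the same 3 higher and 3 lower (Tnmd, Thbs2 and Thbs4), where 8.05% were higher and 40.2% lower. The medians of all genes were -0.27 and -0.28, and higher calls rose from 15.5% and 16.7% of all calls as deposited to 41.7% and 41.3% after median-ratio scaling. Relative to those medians, Mkx was higher by 1.59 and 1.15, Comp by 1.19 and 1.01 and Thbs3 by 1.07 and 0.81. After median-ratio scaling the calls of Mkx, Thbs3, Comp, Thbs4 and, in vertebral GFP- cells, Tnmd and Thbs2 held. Scx, Cilp and Cilp2 (vertebral GFP+) and Cilp (vertebral GFP-) were also called higher. That made 6 members higher and 1 lower for vertebral GFP+ cells, where 17.1% of all genes were higher and 23.8% lower. For vertebral GFP- cells it made 4 higher and 3 lower, where 15.9% were higher and 22.6% lower.

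Thbs4 was lower by 1.45 and 2.27 (SE 0.17 each, adjusted p at most 1.38e-07) than in long bone EMB- cells. Tnmd in vertebral GFP+ EMB- cells, 162.7 ± 27.4 FPKM, differed from the 179.8 ± 69.8 FPKM of long bone by -0.09 (95% interval -0.52 to 0.35), whereas in vertebral GFP- cells it was lower by 1.34 (SE 0.21, adjusted p = 1.26e-05). Long bone EMB- replicate 4 bore on Scx: with it, the differences were 0.44 and 0.12 and did not pass, and without it they were 0.77 (adjusted p = 7.41e-04) and 0.44 (adjusted p = 0.0401). Thbs2 in vertebral GFP+ cells went from -0.18 (adjusted p = 0.485) to -0.44 (adjusted p = 0.0279) without it. Cilp, at 0.56 and 0.53, passed without long bone EMB- replicate 3 (adjusted p = 0.0330 and 0.0386) and not with it (0.0932 and 0.108).

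**Figure D4:**
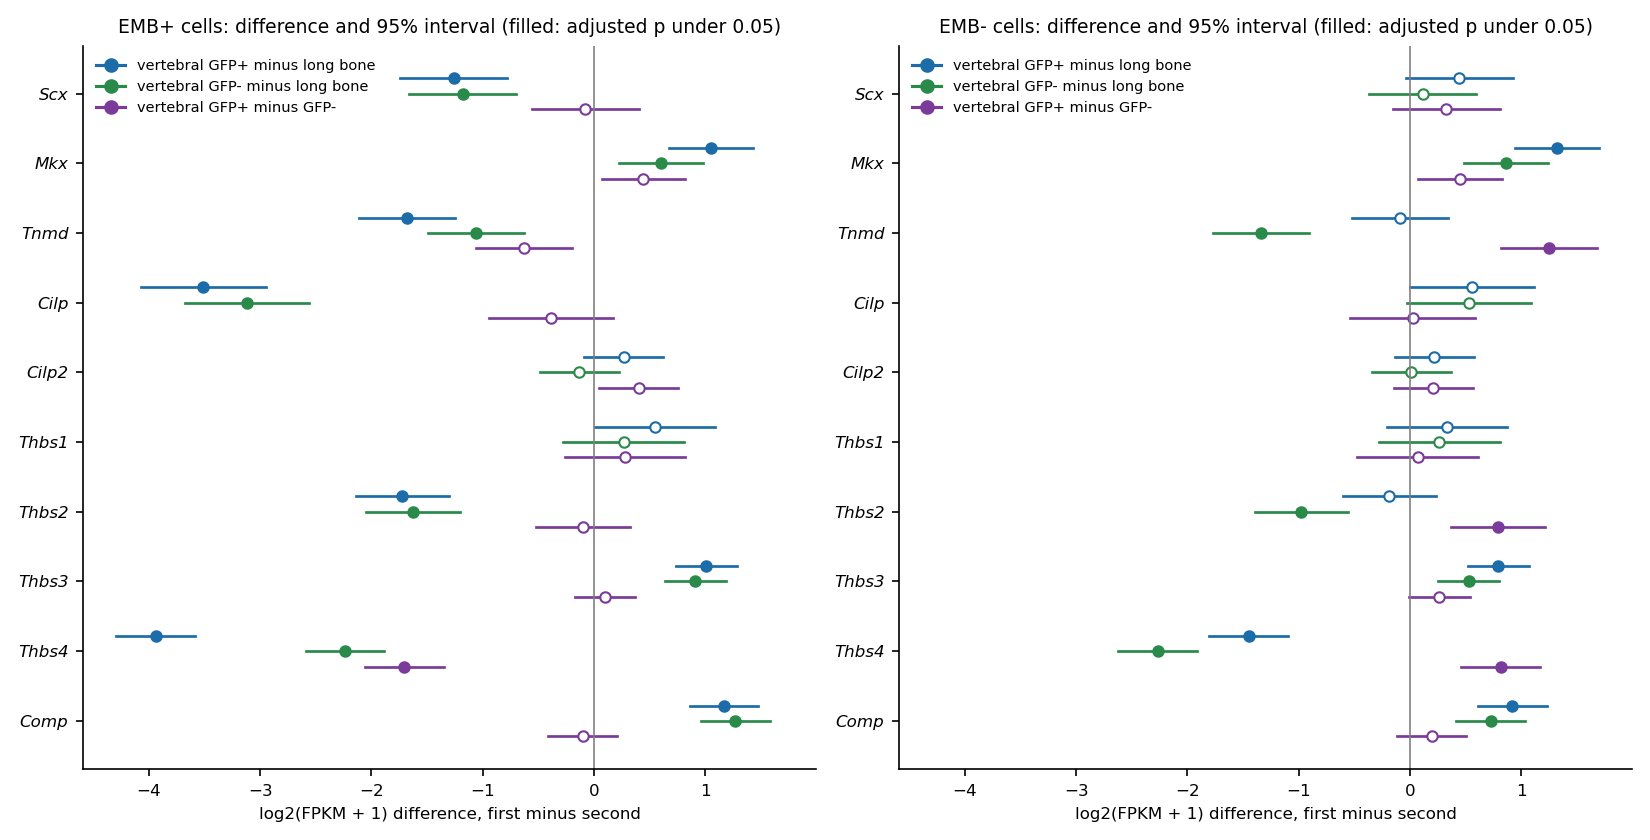
Differences on the log2(FPKM + 1) scale between vertebral and long bone cells and between vertebral GFP+ and GFP- cells (points, with the 95% interval from the limma fit as bars), in EMB+ cells on the left and EMB- cells on the right. Filled points passed an adjusted p of 0.05, and Thbs4 lies at -1.70 in EMB+ and at 0.82 in EMB- cells for vertebral GFP+ minus GFP-.

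As a description over the 24 libraries, which share groups and depth, the members fell into sets by Pearson r of log2(FPKM + 1). Thbs3 and Comp had r = 0.982, Scx and Cilp 0.909, Thbs2 and Thbs4 0.908, and Scx and Tnmd 0.879. Thbs4 ran against Thbs3 with -0.877 and against Comp with -0.872. The tendon factors did not form a single set, since Mkx had r = 0.174 with Scx and 0.148 with Tnmd, and the highest r of Thbs1 with any other member was 0.406, with Thbs3.

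**Figure D5:**
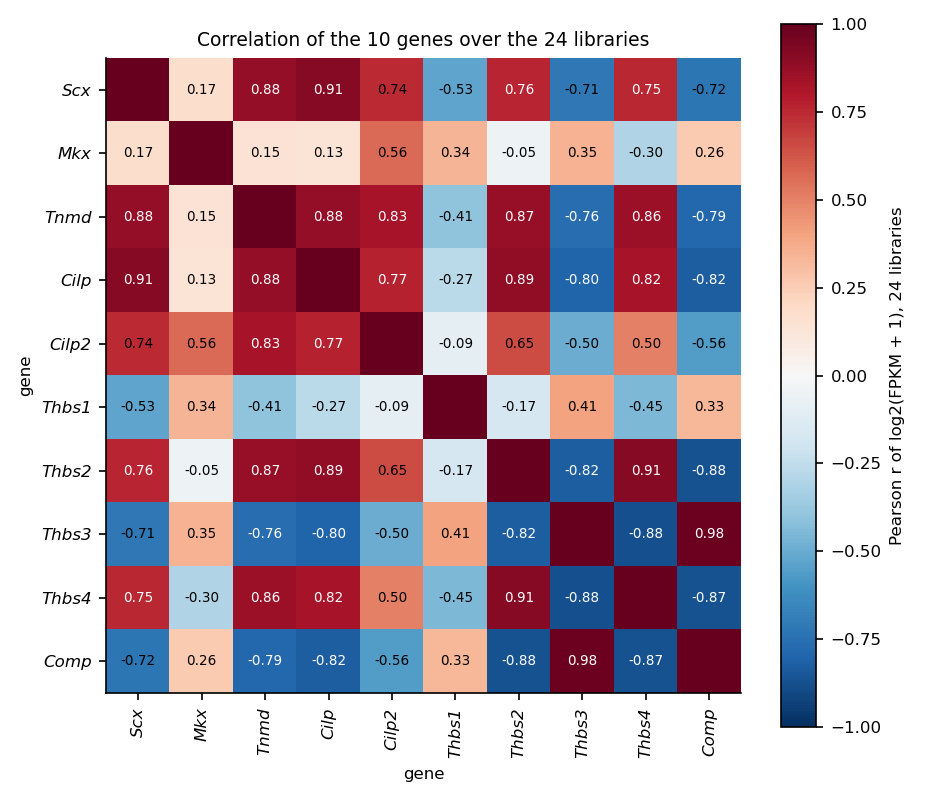
Pearson r of log2(FPKM + 1) over the 24 libraries for each pair of the 10 genes, from -1 (blue) to 1 (red). Scx, Tnmd, Cilp, Thbs2 and Thbs4 are positively correlated with each other (0.752 to 0.909), Thbs3 and Comp with each other (0.982), and no pair with Mkx lies above 0.563 (Cilp2).

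Among 8070 genes with a mean of at least 5 FPKM in some group, the 3 most like each member were ranked by the same r over the 24 libraries. Those for Thbs2 were led by Postn (0.966), which encodes periostin, and Col3a1 (0.964), a fibrillar collagen gene, and those for Thbs4 by Col14a1 (0.949), a fibril-associated collagen gene, and Loxl1 (0.947), an elastin cross-linking enzyme gene. Cilp was nearest to Cpq (0.979), Gas6 (0.972) and Abi3bp (0.969), and Tnmd to Col8a1 (0.967), Sod3 (0.961) and C1qtnf7 (0.948). Comp and Thbs3 shared Pcolce2 (0.977 and 0.968), a procollagen C-proteinase enhancer gene, and Siah2 (0.971 and 0.960). Scx was nearest to Nfkbia (0.931), Mkx to Spsb1 (0.940), Cilp2 to Pmp22 (0.948) and Thbs1 to Tgfbr3 (0.915), the betaglycan gene. Of the 30 places, 24 held the same gene after median-ratio scaling and 8 when r was taken over the 6 group means.

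Genes near the members in known pathways were counted for the EMB comparisons in vertebral GFP+, vertebral GFP- and long bone cells. Of all tested genes, 42.1%, 41.7% and 17.5% were higher and 7.85%, 10.6% and 16% lower, with medians of 0.32, 0.30 and 0.08. Of 17 other tendon and ligament genes, 9, 8 and 4 were lower in EMB+ cells and 4, 5 and 3 higher, with medians of -0.70, -0.43 and 0.01. Aspn, a small leucine-rich proteoglycan gene, was lower by 2.17, 2.21 and 1.37, and Col5a1, a collagen V chain gene, by 1.63 and 1.29 in vertebrae. Lum, which encodes lumican, went the other way and was higher by 2.70 in vertebral GFP- cells and by 1.59 in long bone. Col12a1 was also higher in vertebral GFP- cells, by 2.64, and Lum and Col12a1 had the smallest adjusted p of the list there. Of 10 tested genes of TGF-beta and GDF signalling, which act upstream of tendon genes, 2, 1 and 0 were lower and 4, 5 and 3 higher, with medians of 0.17, 0.43 and 0.32. The shares higher in vertebrae were thus near those of all genes. Tgfb2 was higher by 1.298 and 1.46 in the vertebral comparisons, and Gdf6, a joint and tendon growth factor gene, was lower by 1.43 and 1.19 there and higher by 1.13 in long bone, with group means of at most 3.34 FPKM.

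Of 10 thrombospondin receptor genes, 2, 2 and 3 were lower in EMB+ cells and 6, 5 and 1 higher, with medians of 0.44, 0.46 and -0.12. The shares of all genes that were higher were 42.1%, 41.7% and 17.5%, and those lower 7.85%, 10.6% and 16%. Calr, the calreticulin gene, was higher in all 3 (0.81, 0.90 and 0.47). Cd47, the receptor of thrombospondin-1, was lower by 0.635 in vertebral GFP- cells and by 1.17 in long bone, and Cd36 was lower by 3.71 in long bone, with 0.685 ± 0.579 FPKM in EMB+ and 23.05 ± 13.05 FPKM in EMB- cells. Of 10 cartilage matrix partners of COMP, 8, 8 and 4 were higher in EMB+ cells and 2, 2 and 1 lower, with medians of 1.28, 0.99 and 0.35. Matn3, the matrilin-3 gene, was higher by 2.59, 3.60 and 1.64 and Col9a3, a collagen IX chain gene, by 1.72, 2.01 and 0.60, while Matn2, a matrilin gene found outside cartilage too, was lower by 2.12, 1.83 and 0.87.

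Markers of other cell types moved with the groups. The 6 fibroblast and periosteum markers, all present, summed to 224 to 280 FPKM in vertebral GFP+ EMB+ and 1015 to 1369 in GFP+ EMB- libraries, 225 to 386 and 823 to 1099 in vertebral GFP- cells, and 686 to 959 and 1347 to 2394 in long bone, which is the direction of the 7 lower members. In each of the 3 EMB comparisons 5 of the 6 were called lower in EMB+ cells, where 7.85%, 10.6% and 16% of all genes were lower. In vertebral GFP- cells the remaining 1 was called higher. Col3a1 made up most of that sum, and Pdgfra did not follow it, with 10.7 and 10.5 FPKM in vertebral GFP+ EMB+ and EMB- cells. The 7 erythroid markers summed to 20120 to 42330 FPKM in long bone EMB- and 7256 to 12330 in vertebral GFP- EMB- libraries, and to at most 977 FPKM in the other 4 groups. The 5 skeletal muscle markers found summed to 324 to 807 FPKM in long bone EMB- libraries and at most 104 elsewhere. That sum was nearly all Tnni2 (322 to 799 FPKM), and Ckm and Myh3 were below 1 FPKM in all 24 libraries. The 7 leukocyte markers summed to 277 to 1909 FPKM in vertebral GFP- EMB+ libraries and to at most 429 FPKM in the other groups. Of the 7 chondrocyte markers, 6, 6 and 5 were called higher in EMB+ cells of the 3 comparisons, the direction of Thbs3 and Comp, and the remaining 1 in each vertebral comparison, Col2a1, was called lower. Col2a1 made up most of the summed level, which therefore went the other way in vertebrae, with 43310 to 45350 FPKM in GFP+ EMB+ and 50470 to 53480 in GFP+ EMB- libraries, and 42680 to 44670 and 51840 to 56550 in GFP- cells. In long bone the sums overlapped (24590 to 36040 and 26900 to 35790 FPKM). Of the 6 osteoblast markers, 3, 5 and 3 were also called higher in EMB+ cells of the 3 comparisons, and 1, 0 and 1 lower. Of all genes, 42.1%, 41.7% and 17.5% were higher.

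Markers also moved with the site. For vertebral GFP+ against long bone in EMB+ and EMB- cells, and then vertebral GFP- against long bone in EMB+ and EMB- cells, 8, 7, 7 and 7 of the 8 genes of the dissociation response were called higher in vertebrae, with sums of 8983 to 12750 FPKM in vertebral and 5244 to 7743 FPKM in long bone libraries. In the same order 3, 4, 3 and 5 of the 6 osteoblast markers were called lower in vertebrae, with sums of 628 to 1845 against 2276 to 5887 FPKM. Of the 6 fibroblast and periosteum markers, 5, 5, 5 and 6 were lower in vertebrae, the direction of Thbs4 in all 4 comparisons. In the same order 12.9%, 40.4%, 10.6% and 40.2% of all genes were lower in vertebrae, and 8.66%, 7.4%, 8.49% and 8.05% higher. In EMB- cells, 4 of the 6 fibroblast and periosteum markers were called higher in vertebral GFP+ than in GFP- cells, and 0 lower. Of the 6 osteoblast markers 4 were higher there, and all 7 erythroid markers were lower. The shares of all genes there were 2.25% higher and 6.22% lower. In EMB+ cells 0 of these markers were called by GFP. There 5 of 6 leukocyte markers tested were lower in GFP+ cells, where 1.71% of all genes were lower. The part of any of these markers in the members' differences was not tested.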

How the data were processed

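RNA of the sorted cells was made into unstranded cDNA libraries with SMART-Seq v4 and Nextera XT, per the labels' protocols. The authors deposited 1 table of FPKM values per protein-coding gene. Per the submitters' processing notes, Cufflinks 2.1.1, STAR 2.5.2, bcl2fastq 2.19 and the genome build GRCm38 were used. FPKM do not keep the read depth, which is therefore unknown, so no counting intervals are given. Start positions in the table were counted from 0 and were raised by 1.

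Of 22053 entries, repeated identifiers (46) and symbols (56) and 3 failed estimates were left out. The 21948 genes left were reduced to the 11767 that reached 1 FPKM in 4 or more libraries. On log2(FPKM + 1), limma 3.58.1 (R 4.3.3) fitted the 6 groups of 4 libraries together (18 residual degrees of freedom, trended and robust variances, two-sided), with Benjamini-Hochberg adjustment over all tested genes within each comparison at 0.05. The same steps were tested on simulated data. Groups follow the cell type label, even where the titles of 4 libraries (vertebral GFP- EMB+) read otherwise. Long bone EMB+ titles all say replicate 1, so those libraries were numbered in accession order.

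The 10 members and all gene lists were chosen with earlier results of these data known. Genes named beside the members are the 3 most correlated with each over the 24 libraries, up to 4 genes per pathway list with the smallest adjusted p, overlapping genes, and Emb and Zic1. Same-numbered vertebral samples deviated together (correlations of deviations from the group means of 0.104 to 0.337 in 5 of 6 pairs of groups, and 0.0971 to 0.279 in vertebral GFP+ EMB+ against EMB- cells, where 1 of 4 missed the required 0.1). In pairs with long bone they ranged from -0.297 to 0.395. Alternatives were pseudocounts of 0.1 and 5, other filters, quantile and median-ratio scaling, replicate blocks, fits of only the compared groups, and leaving out single libraries or the 4 with conflicting labels. Promoter sequences are from RefSeq (GRCm38.p6).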

Additional observations from a re-analysis of the deposited data

Results flagged for a closer look

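Scx was far from the other libraries of its group in 2 places: vertebral GFP+ EMB+ replicate 4 at 7.23 FPKM, with a gap of 0.873 of the group's range, and long bone EMB- replicate 4 at 33.52 FPKM, both past the limit for a group of 4. Chance gives about 1 such flag in 20 groups, and 60 groups of 4 were checked for the 10 genes.

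The EMB difference differed between settings, tested in the limma fit as a difference of log2(FPKM + 1) differences, for 9 values. Vertebral GFP+ against GFP- cells gave -1.876 for Tnmd (adjusted p = 1.4e-04) and -2.52 for Thbs4 (1.8e-07). Vertebral GFP+ cells against long bone gave -1.702 for Scx (2.7e-04), -1.599 for Tnmd (1.6e-04), -4.07 for Cilp (7.9e-09), -1.537 for Thbs2 (1.9e-04) and -2.49 for Thbs4 (1.4e-08). Vertebral GFP- cells against long bone gave -1.296 for Scx (0.0045) and -3.656 for Cilp (1.4e-07). In each, the EMB+ cells of the first setting were lower relative to their EMB- cells than those of the second.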

How the results depend on the processing

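Of 120 member values tested, 64 were called as reported and 85 in at least 1 setting. Of the 64, 7 lost the call under some alternative and 0 turned sign. The other 35 were never called, and 18 of these turned sign under a setting. The 9 member calls in vertebral GFP+ EMB cells remained when each library in turn was left out. With single libraries left out, the count of members called ranged from 8 to 9 (EMB, vertebral GFP-), 5 to 7 (EMB, long bone), 2 to 3 (GFP, EMB- cells), 7 to 8 and 6 to 7 (vertebral GFP- against long bone, EMB+ and EMB-), 4 to 6 (vertebral GFP+ against long bone, EMB-), and 5 to 6 and 2 to 4 (EMB difference against long bone, vertebral GFP+ and GFP-). The 4 came without long bone EMB- replicate 2. Leaving out single libraries did not move the other 3 counts (8, 1 and 2).

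With only the compared groups fitted, 3 members were called for EMB in long bone (Tnmd, Cilp2 and Thbs4) in place of 7, and 4 in place of 2 for the EMB difference between vertebral GFP+ and GFP- cells. This fit takes the spread of each gene from the compared groups only, while the main fit shares 1 estimate over all 6 groups. The SD of Comp was 410 and 419 FPKM in the long bone groups and 71.6 to 271 FPKM in the vertebral groups. Median-ratio scaling gave 7 in place of 4 for vertebral GFP+ against long bone EMB- cells. For the EMB difference of vertebral GFP- cells against long bone, quantile normalization gave 4 in place of 2. The replicate block by title codes gave 4 there too (Thbs3 and Comp added, both higher), 4 in place of 1 for GFP in EMB+ cells and 5 in place of 3 for GFP in EMB- cells, and added Mkx in long bone EMB (adjusted p = 0.0344). The replicate block by number, fitted only for comparisons without long bone EMB+ cells, changed no member call there. That block is shared by vertebral and long bone EMB- libraries, whose same-numbered deviations correlated from -0.297 to 0.395. Of the 30 places for the genes most like the members, 3 per member, 8 were kept over group means. For these changes the cause was not tested.

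Of the 85 values, these turned sign, none of them called as reported. Thbs1 went to -0.082 for EMB in vertebral GFP+ cells and to -0.091 for the EMB difference of vertebral GFP+ cells against long bone after median-ratio scaling, and the latter ranged from -0.044 to 0.648 with single libraries left out. Thbs2 in vertebral GFP+ against long bone EMB- cells was 0.194 after quantile normalization and 0.122 after median-ratio scaling, and ranged from -0.444 to 0.001 with single libraries left out. Scx in vertebral GFP- against long bone EMB- cells ranged from -0.062 to 0.444 likewise. Thbs3 in the EMB difference of vertebral GFP- cells against long bone was -0.149 after quantile normalization.

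Calls over all genes moved from 5883 to 3329 (quantile) and 3248 (median-ratio) for EMB in vertebral GFP+ cells, from 3942 to 2059 for EMB in long bone and from 573 to 1150 for the first EMB difference (only the compared groups), from 247 to 136 for GFP in EMB+ cells (filter at 5 FPKM), and from 3503 to 2281 for the last EMB difference (median-ratio). The unknown depth and 4 libraries a group limit the precision, and long bone EMB- cells, with 1 library apart, vary most.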
